A study of Mus musculus with 6 samples.

Results

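The genes for building and running peroxisomes were compared between striata with and without PGC-1alpha, the coactivator of transcription that Ppargc1a encodes. The set held 37 of the 18194 genes named on the array. It was made of 14 genes whose symbol is Pex followed by a number and 23 listed genes for peroxisomal enzymes and membrane proteins. Each gene was read by the probe set with the highest mean level over all 6 arrays, on the scale log2(signal + 16), a choice that did not use genotype. PGC-1a-/- (KO) mice and PGC-1a+/+ (WT) littermates were compared, with 3 mice in each genotype and 1 array per mouse. All 6 were females aged 6 months, bred from PGC-1a+/- founders. The labels name no restriction of the null allele to a tissue or cell type, and do not say which stretch of the gene is altered. The label of KO 3 gives cytoplasmic RNA where the other 5 give total RNA, and results that turn on that array are given without it.

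Peroxisomes are organelles that shorten very long, branched and some unsaturated fatty acids, begin the synthesis of ether lipids such as the plasmalogens of myelin, and detoxify the hydrogen peroxide that their oxidases make. Their matrix enzymes are translated in the cytosol and imported by the peroxins, the products of the Pex genes. Loss of peroxins in humans causes Zellweger spectrum disorders, in which the brain is severely affected. PGC-1alpha binds nuclear receptors, among them the PPARs and the oestrogen-related receptors, whose known targets include genes of fatty acid oxidation.

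The targeted gene was low in the mice labelled KO. All 5 Ppargc1a probe sets read lower in every KO mouse than in any WT mouse, with differences from -1.93 to -1.12 on the log2 scale, each past the threshold. Markers of medium spiny neurons, the main cells of the striatum, were bright in both genotypes: the summed signal of 8 ran from 26695 to 29341 in KO and from 24723 to 29321 in WT. The summed signals for parvalbumin interneurons (1398 to 1896 in KO, 1590 to 2916 in WT) and oligodendrocytes (27746 to 28969 and 27350 to 33138) also overlapped between genotypes. So did those for astrocytes, microglia, endothelium, cortical neurons (247 to 660 and 277 to 517) and thalamus (800 to 1074 and 266 to 1309). The cortical and thalamic sums varied widely between mice of the same genotype, so overlap does not show that the tissue was alike. No marker was at 0 on any array. Of the tested markers, 7 of 8 for medium spiny neurons and 4 of 4 for thalamus were higher in KO, as were 5 of 8 for astrocytes and 4 of 7 for microglia. Lower in KO were 7 of 9 for oligodendrocytes, 4 of 5 for endothelium, 3 of 5 for parvalbumin interneurons and 3 of 4 for cortical neurons. None of these was called by limma at the threshold below. An unadjusted limma p under 0.05 was found for 4 of the 9 oligodendrocyte and 3 of the 5 parvalbumin markers. Among the oligodendrocyte markers, Mag and Opalin were lower without overlap and Mal was higher without overlap. The choroid plexus list did not overlap (2892 to 3912 in KO, 1510 to 2444 in WT). That sum is mostly Ttr, which was called higher (0.91, limma adjusted p = 0.035), and 3 of the 5 markers on that list were too dim to test. The part of tissue composition in the results below was not tested. In whole striatum, fewer cells of a type and less RNA per cell cannot be told apart.

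A few peroxisomal enzymes fell in KO striatum. None of the 14 Pex genes passed the test, beside 0.470% of all probe sets, so that count does not set them apart. Phyh, Nudt19 and Ech1 were called lower, to between 49.5% and 66.8% of the WT level of signal + 16, and no gene of the set was called higher. All 37 genes lay above the filter on dim probe sets. The 3 calls are 8.11% of the set, beside 0.292% of all 27022 probe sets called lower and 0.470% called in either direction by limma at an adjusted p under 0.05. The genes were listed with earlier results from these arrays known, Phyh among them, so this share is not independent evidence. Groups did not overlap for 7 genes (18.9%), beside 14.4% of all probe sets tested. Of these, 6 were lower in all KO mice (Phyh, Nudt19, Ech1, Eci2, Hsd17b4 and Pex2), beside 7.88% of all, and Pex13 was higher, beside 6.52%. An unadjusted p under 0.05 was found for 5 of the 37 genes, beside 9.17% of all probe sets.

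**Figure D1:**
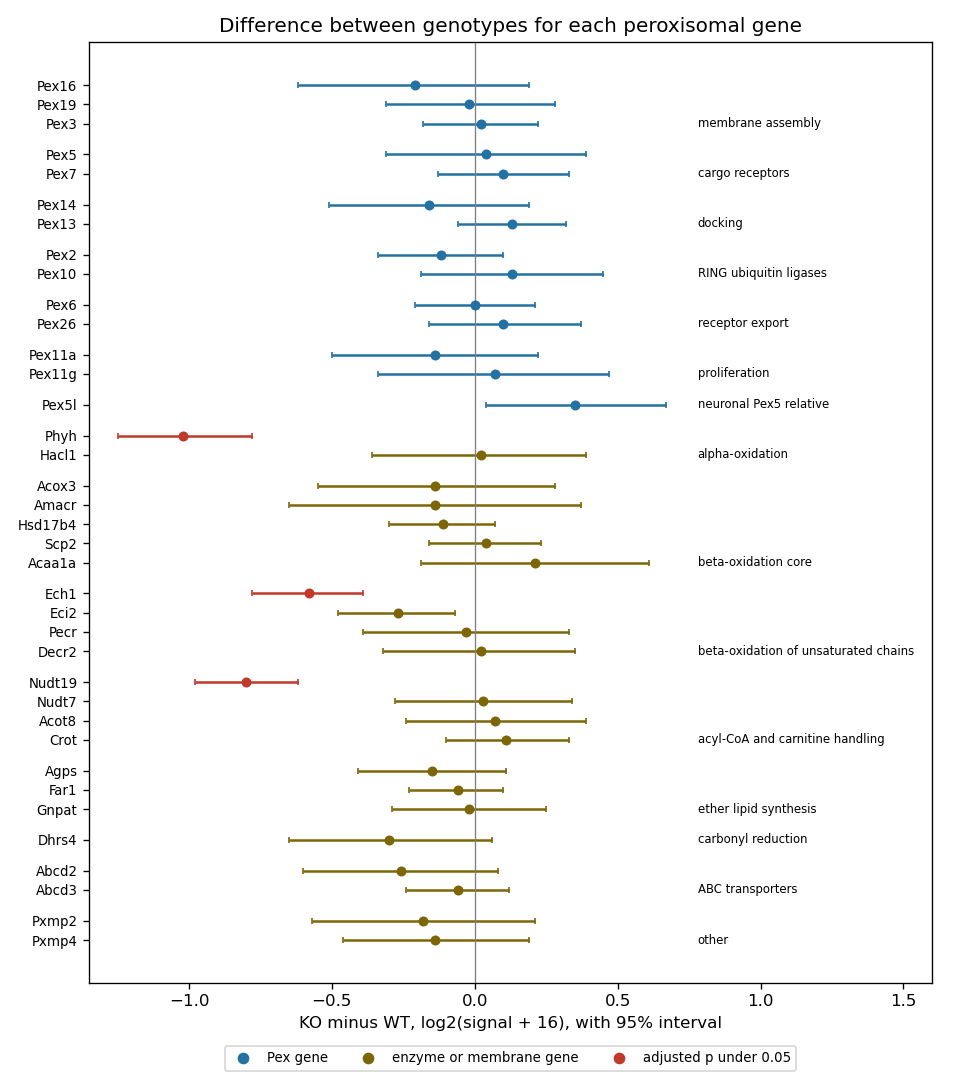
KO minus WT difference on the log2(signal + 16) scale for each of the 37 genes (points) with its 95% interval from limma (bars), grouped by role. Phyh (-1.02), Nudt19 (-0.80) and Ech1 (-0.58) lie apart on the left, and the intervals of all Pex genes but Pex5l include 0.

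Phyh encodes phytanoyl-CoA hydroxylase, which carries out the first step of the alpha-oxidation of phytanic acid, a branched fatty acid from the diet. It is the enzyme deficient in most patients with Refsum disease. Its signal was 220.6, 173.6 and 200.6 in the KO mice and 402.1, 400.2 and 445.2 in the WT mice. The highest KO mouse was thus well below the lowest WT mouse. The KO mean of 198 ± 23.6 (SD, n = 3) and the WT mean of 416 ± 25.5 gave a difference of -1.02 (SE 0.11, 95% interval -1.25 to -0.78, limma adjusted p = 7.9e-04). The call held in all 16 alternative analyses, with an adjusted p of 4.7e-04 to 0.045 and a difference of -0.93 to -1.09 when any 1 array was left out. Phyh has 1 probe set, so no other probe set bears on the value.

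The lyase that acts later in the same pathway was not called. Hacl1, which cleaves the hydroxylated product of Phyh, read 60.9, 68.3 and 88.7 in KO and 77.9, 60.9 and 74.8 in WT. These ranges overlapped, and the difference was 0.02 (95% interval -0.36 to 0.39, limma adjusted p = 0.99). Measured within each array, the log2 ratio of Phyh to Hacl1, taken as a deviation from its WT mean, was -0.69, -1.14 and -1.26 in the KO mice and lay between -0.16 and 0.12 in the WT mice. This pair was picked after the values were seen and was not tested.

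Nudt19 encodes a nudix hydrolase of peroxisomes that splits coenzyme A and its acyl esters. Its brighter probe set read 357.3, 388.1 and 366.1 in KO and 651.2, 630.2 and 690.0 in WT. Every KO mouse was below every WT mouse, and the spread within each genotype was small beside the gap. The means of 370.5 ± 15.9 (SD, n = 3) and 657 ± 30.3 differed by -0.80 (SE 0.08, 95% interval -0.98 to -0.62, limma adjusted p = 7.2e-04). The other Nudt19 probe set read 296.9, 311.0 and 331.8 in KO and 459.0, 536.9 and 517.8 in WT. It was also called, at -0.66 (SE 0.09, limma adjusted p = 0.0083), so that both probe sets for the gene fell. The call held without any 1 array. It was lost only without the intensity trend in the variance model (adjusted p = 0.052; 4.4e-04 to 0.052 over all alternatives).

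Nudt7, a related peroxisomal hydrolase of coenzyme A, was not called. Its brighter probe set read 95.1, 110.4 and 126.0 in KO and 111.9, 113.9 and 96.9 in WT, with overlapping groups and a difference of 0.03 (95% interval -0.28 to 0.34). A dimmer one read 41.5, 58.3 and 46.6 in KO and 67.8, 66.9 and 85.4 in WT, without overlap, but at -0.47 it did not pass (limma adjusted p = 0.42). Its probe sets therefore disagreed on whether the gene was lower.

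Ech1 encodes a dienoyl-CoA isomerase for the oxidation of unsaturated fatty acids and is found in both peroxisomes and mitochondria. It read 337.5, 336.0 and 304.3 in KO and 479.4, 518.6 and 489.7 in WT. The groups were far apart relative to their spread. The means of 326 ± 18.8 (SD, n = 3) and 496 ± 20.3 differed by -0.58 (SE 0.09, 95% interval -0.78 to -0.39, limma adjusted p = 0.013). This call was the least firm of the 3: it was lost without KO 3 (adjusted p = 0.0503), without WT 2 (0.063) and without the intensity trend (0.18), within a range of 0.010 to 0.18 over all alternatives, while the difference stayed between -0.61 and -0.52. Ech1 is read by a single probe set.

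**Figure D2:**
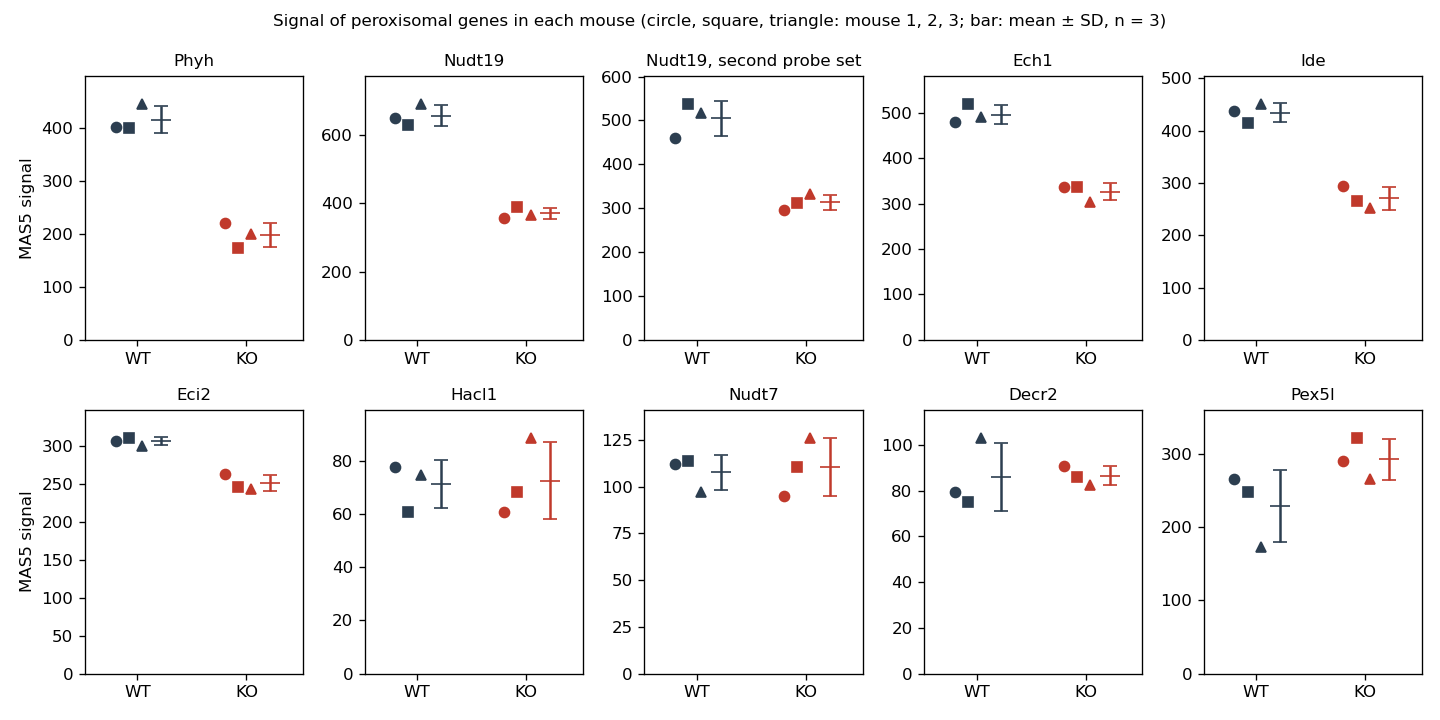
MAS5 signal (linear scale, from 0) of 9 genes in each WT and KO mouse, with Nudt19 shown for both of its probe sets. Points are mice and bars give the mean ± SD (n = 3). KO and WT separate fully for Phyh, Nudt19, Ech1, Ide and Eci2 and overlap for Hacl1, Nudt7, Decr2 and Pex5l.

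The other members grouped with Ech1, as acting on unsaturated chains, did not pass the test. Eci2, an enoyl-CoA isomerase that also has a mitochondrial form, read 263.6, 246.5 and 244.0 in KO and 307.7, 311.3 and 301.0 in WT. Its groups did not overlap, and the difference of -0.27 (SE 0.09, 95% interval -0.48 to -0.07) had an unadjusted p of 0.013 and a limma adjusted p of 0.35. Decr2, the peroxisomal dienoyl-CoA reductase, read 91.0, 85.9 and 82.7 in KO and 79.5, 75.2 and 103.1 in WT, a difference of 0.02. Pecr, an enoyl-CoA reductase, differed by -0.03. The log2 ratio of Ech1 to Decr2 on the same array deviated from its WT mean by -0.61, -0.55 and -0.64 in the KO mice. In the WT mice it deviated by -0.25 to 0.21. For Ech1 to Eci2 the deviations were smaller, at -0.33, -0.24 and -0.36 in KO and -0.05 to 0.04 in WT. Both pairs were also picked after the values were seen and were not tested.

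The 250 bases before the annotated start of each called gene are shown because these 3 members fell together. The sequences are from RefSeq, build GRCm38.p6, and run 5′ to 3′ on the strand of the gene. Capitals mark GC boxes (GGGCGG on either strand), the only searched letters found there. Phyh lies at chr2:4918746-4918995 (+ strand), Nudt19 at chr7:35555929-35556178 (- strand) and Ech1 at chr7:28825088-28825337 (+ strand).
Phyh: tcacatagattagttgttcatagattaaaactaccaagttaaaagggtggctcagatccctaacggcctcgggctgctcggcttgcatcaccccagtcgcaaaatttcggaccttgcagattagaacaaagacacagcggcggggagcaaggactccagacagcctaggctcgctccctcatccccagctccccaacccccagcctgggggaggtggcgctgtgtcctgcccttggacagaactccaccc
Nudt19: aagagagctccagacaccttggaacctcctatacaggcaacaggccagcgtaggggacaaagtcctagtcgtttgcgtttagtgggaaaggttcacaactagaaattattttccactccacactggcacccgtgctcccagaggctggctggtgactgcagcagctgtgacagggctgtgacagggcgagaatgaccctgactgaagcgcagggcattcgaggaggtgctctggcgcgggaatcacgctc
Ech1: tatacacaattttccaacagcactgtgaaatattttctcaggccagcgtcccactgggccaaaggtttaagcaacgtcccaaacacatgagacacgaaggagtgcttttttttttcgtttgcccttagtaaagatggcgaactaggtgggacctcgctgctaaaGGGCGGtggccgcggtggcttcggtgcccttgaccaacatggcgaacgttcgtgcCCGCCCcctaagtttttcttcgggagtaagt

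Letters bound by nuclear receptor partners of PGC-1alpha were searched on both strands of windows that ran on for 50 bases past the start. The GC box, which is not one of these receptor sites, was searched in the same windows. The extended site of the oestrogen-related receptors, TCAAGGTCA, was in none of the 35 windows of 30 member genes, beside 0.423% of all 32851 windows. The direct repeat bound by PPAR and RXR (the hexamer below repeated after a spacer base) was in none either, beside 0.0396%. The hexamer these sites share, AGGTCA, was in 3 of the 35 member windows, those of Phyh, Scp2 and Pex11g, beside 16.3% of all windows. In Phyh it lies on the other strand, from base 37 after the start (capitals, chr2:4919020-4919045).
Phyh: gtaagttaagtgTGACCTgggcgcag
The GC box was in 26 of the 35 member windows, beside 35.7% of all windows. These belong to 24 of the 30 genes, Ech1 among them and Phyh and Nudt19 not. Member windows were also richer in CpG before the start, with a median of 14 beside 6 over all windows. The GC box share was not adjusted for this. Ech1 has it at -86 and, on the other strand, at -31, counted from the start. A match is a description of the letters and not a site.

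The core enzymes of peroxisomal beta-oxidation showed no call. Hsd17b4, the bifunctional enzyme that hydrates and then dehydrogenates the acyl chain, read 397.7, 368.4 and 384.4 in KO and 397.9, 414.9 and 437.1 in WT. The groups were barely apart, with KO 1 and WT 1 nearly level, and the difference of -0.11 (95% interval -0.30 to 0.07) did not pass. Another Hsd17b4 probe set differed by -0.01. Acox3, an oxidase of branched acyl-CoA, and Amacr, the racemase that prepares methyl-branched chains for it, each gave -0.14. Scp2, a thiolase and sterol carrier protein, gave 0.04, and the thiolase Acaa1a gave 0.21, with another Acaa1a probe set at -0.21. Acaa1a has a near-identical copy, Acaa1b, which its probe sets may not separate.

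Enzymes that hand acyl chains on and those that make ether lipids likewise lacked calls. Crot, which makes carnitine esters for export to mitochondria, differed by 0.11 and the thioesterase Acot8 by 0.07. Gnpat and Agps, which make the first ether lipid intermediates, and Far1, which supplies their fatty alcohol, gave -0.02, -0.15 and -0.06. Agps read 153.7, 160.8 and 167.3 in KO and 158.3, 189.1 and 194.3 in WT, with overlap. The 95% interval of Far1, the narrowest of the set, ran from -0.23 to 0.10. Dhrs4, a carbonyl reductase, read 87.8, 72.6 and 71.9 in KO and 108.8, 80.0 and 108.8 in WT. Its difference of -0.30 (95% interval -0.65 to 0.06, limma adjusted p = 0.63) rests on groups that overlap, and another Dhrs4 probe set gave -0.02.

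All 4 membrane proteins outside the peroxin family were lower by their brightest probe set, and none passed. Abcd2, a transporter of very long chain acyl-CoA, read 112.5, 103.1 and 92.8 in KO and 158.3, 109.4 and 115.0 in WT, so that WT 1 stood above the rest. Its difference was -0.26 (95% interval -0.60 to 0.08), without WT 1 it was -0.11, and the other tested Abcd2 probe sets gave -0.15 and 0.18. With the mean of its probe sets the sign turned, to 0.01. Abcd3, which carries branched and dicarboxylic acyl chains, gave -0.06. Pxmp2, a channel protein, read 103.5, 84.6 and 114.7 in KO and 85.4, 129.9 and 138.5 in WT, with overlapping groups at -0.18. Without WT 1 it was -0.37, and it lay between -0.11 and -0.07 without KO 2, WT 2 or WT 3. Pxmp4 gave -0.14.

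None of the 14 Pex genes was called by limma, beside 0.470% of all probe sets tested, so a count of 0 is near that share. Only 1, Pex5l, had an unadjusted p under 0.05, beside 9.17% of all probe sets. Of the 14, 5 were lower and 9 higher or level, with a median of 0.03 and a range from -0.21 to 0.35. The top of that range is Pex5l, which is known for another role (below). Without it, the other 13 had a median of 0.02 and a range from -0.21 to 0.13. Over the brightest probe sets the lowest end of a 95% interval was -0.62, for Pex16, and over all tested peroxin probe sets it was -0.65, for the dimmer of Pex2 (-0.26). With all 6 arrays, the point differences of Phyh (-1.02) and Nudt19 (-0.80) lie outside each of these intervals, while that of Ech1 (-0.58) does not. This comparison leaves out the error of the called genes themselves. The 95% interval of Nudt19 (-0.98 to -0.62) reaches past -0.65, and its other probe set was at -0.66. Whether the called genes fell more than the peroxins was not tested. The bound for Pex16 rests in part on WT 3, without which its difference was -0.41, and was not recomputed without that array. For the brightest probe sets the intervals reached 0.19 to 0.40 to either side, so smaller differences were not resolved with 3 mice per genotype.

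A first group of peroxins places proteins in the peroxisomal membrane. Pex3, the membrane anchor, differed by 0.02 and Pex19, the soluble chaperone, by -0.02. Pex16, which helps recruit them, read 67.5, 79.3 and 70.6 in KO and 92.9, 109.8 and 62.6 in WT. These groups overlapped, at -0.21, and the difference was -0.41 without WT 3 and -0.07 without WT 2. A dimmer Pex16 probe set went the other way, with 43.0, 31.9 and 52.4 in KO and 17.2, 23.3 and 19.9 in WT (0.68, limma adjusted p = 0.31). The WT values of that probe set all lie below the filter signal of 26.8, and the mean of both probe sets differed by 0.23.

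The import receptors bring matrix enzymes to the organelle. Pex5 reads a signal at the end of most of them and differed by 0.04 in both of its probe sets. Pex7 reads a signal near the start of a few, among them Phyh, Agps and the thiolase of Acaa1a. Pex7 read 337.4, 425.5 and 372.7 in KO and 326.0, 382.7 and 343.1 in WT, with overlap (0.10, 95% interval -0.13 to 0.33). Of these 3 cargoes, Phyh alone was called, at -1.02 beside -0.15 for Agps and 0.21 for Acaa1a.

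At the membrane, Pex13 and Pex14 form the docking complex. Pex13 read 424.9, 412.8 and 417.2 in KO and 402.2, 374.1 and 367.8 in WT. All KO mice were above all WT mice, yet the difference of 0.13 (95% interval -0.06 to 0.32) did not pass, and another Pex13 probe set gave -0.06. Pex14 differed by -0.16. The ubiquitin ligases Pex2 and Pex10, which mark the receptor for recycling, gave -0.12 and 0.13. Pex2 read 236.1, 224.9 and 234.9 in KO and 245.6, 238.2 and 278.1 in WT, without overlap, and its limma adjusted p was 0.78. Pex6, an ATPase that pulls the receptor out, gave 0.00 and its anchor Pex26 gave 0.10, from 155.4, 151.4 and 135.1 in KO and 131.2, 132.9 and 143.4 in WT.

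Pex11a and Pex11g, which elongate the membrane before division, differed by -0.14 and 0.07. Pex11a, a known PPAR target, read 109.8, 73.5 and 95.7 in KO and 97.2, 119.3 and 93.3 in WT, with overlap. Pex5l resembles Pex5 but is known in neurons as an auxiliary subunit of HCN channels. It read 290.0, 321.9 and 265.3 in KO and 265.4, 247.6 and 172.7 in WT, so that KO 3 and WT 1 were level. The difference was 0.35 (SE 0.15, 95% interval 0.04 to 0.67, unadjusted p = 0.031, limma adjusted p = 0.47). The other Pex5l probe sets gave 0.25, 0.50 and -0.03, and without any 1 array the difference ran from 0.18 to 0.46.

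The enzyme and membrane genes had a lower median than the peroxins. Over the 23 enzyme and membrane genes 16 were lower, with a median of -0.11. The median was 0.03 for the 14 Pex genes and 0.00 for all probe sets tested, of which 13799 of 27022 were lower. The 19 enzyme genes alone had a median of -0.06, with 12 lower. The 4 membrane genes, all lower, had a median of -0.16. Taken mouse by mouse as deviations from the WT mean, the median of the 23 was -0.14 in KO 1, -0.12 in KO 2 and -0.07 in KO 3, against -0.01 to 0.05 in the WT mice, without overlap. The median of the Pex genes ran from 0.00 to 0.07 in KO and from -0.06 to 0.07 in WT, with overlap. Without Phyh, Nudt19 and Ech1 the other 20 had a median of -0.06, and 13 of them were lower. The median of the 23 was -0.07 with an offset of 64, and also -0.07 with arrays centred on their median, a scaling that puts the median of all probe sets at 0.04. No test was made of these medians, because the genes were chosen with results known.

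**Figure D3:**
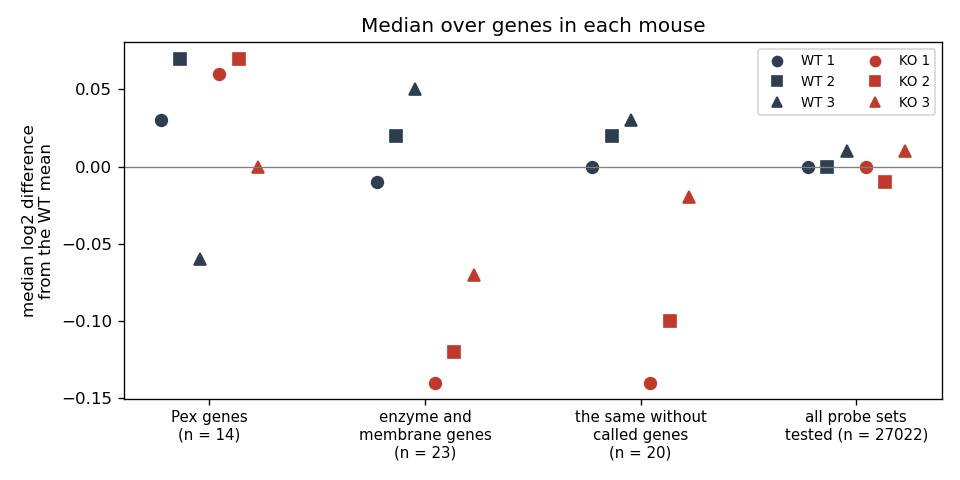
Median over genes of the log2 difference from the WT mean in each mouse, for the Pex genes, the enzyme and membrane genes, the latter without Phyh, Nudt19 and Ech1, and all probe sets tested. KO mice lie below WT mice for the enzyme and membrane genes (-0.14 to -0.07 against -0.01 to 0.05), and genotypes mix for the Pex genes.

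Where a gene had more than 1 probe set, agreement was uneven. The 37 genes had 67 tested probe sets, of which 4 were called, and 19 genes had more than 1. In 11 of the 19 the probe sets differed in sign, none of these genes being called. Both Nudt19 probe sets were called, the only gene of the 19 with any call. Of the genes with 5 probe sets, Far1 ran from -0.11 to 0.06 and Pex6 from -0.22 to 0.17.

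**Figure D4:**
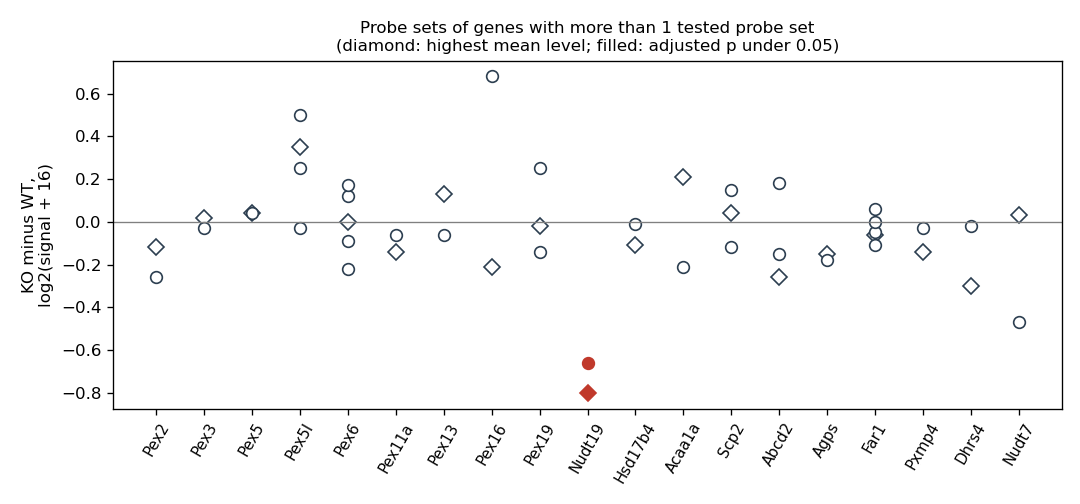
KO minus WT difference on the log2(signal + 16) scale for every tested probe set of the 19 genes that have more than 1. Diamonds are the probe sets with the highest mean level and filled symbols passed the threshold. Both Nudt19 symbols are filled (-0.80 and -0.66), and those of Pex16 lie on opposite sides of 0.

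Other peroxisomal genes were read from a list of 58 symbols outside the set, of which 51 had a probe set and 40 passed the filter. Of these, 1 was called lower and 0 higher by limma, beside 0.292% and 0.178% of all probe sets tested. An unadjusted p under 0.05 was found for 2, beside 9.17% of all probe sets. They were the called gene, described below, and Far2, which was higher in KO (0.33, limma adjusted p = 0.48) with another probe set at -0.19. In direction, 32 of the 40 were lower (median -0.10, range -0.65 to 0.33), beside 13799 of all 27022 probe sets tested. These values were not recomputed with arrays centred on their median, a scaling that puts the median of all probe sets at 0.04. Catalase, Cat, which breaks down hydrogen peroxide, read 372.3, 382.2 and 332.3 in KO and 353.5, 443.4 and 415.0 in WT (-0.15, not passing), and another Cat probe set gave 0.05. Ehhadh, a bifunctional enzyme of beta-oxidation and a known PPAR target, gave -0.27 (limma adjusted p = 0.71). The 4 lists had medians of -0.09 for oxidases and peroxide enzymes, -0.10 for lipid and acyl-CoA enzymes, -0.19 for isoprenoid, glyoxylate and NADPH enzymes, and -0.07 for quality control and division.

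The called gene was Ide, the insulin-degrading protease, which is mostly cytosolic and also carries a peroxisomal targeting signal. Its brightest probe set read 294.2, 266.2 and 251.8 in KO and 438.4, 414.9 and 450.6 in WT. Every KO mouse lay below every WT mouse. The means of 271 ± 21.6 (SD, n = 3) and 435 ± 18.1 differed by -0.65 (SE 0.10, 95% interval -0.86 to -0.45, limma adjusted p = 0.0088). The other 4 Ide probe sets gave -0.58 (adjusted p = 0.033), -0.19, -0.55 and -0.50, of which the first was also called. The call of the brightest held without any 1 array, and was lost without the intensity trend (adjusted p = 0.14) and with the mean of all 5 probe sets (0.089), within a range of 0.0070 to 0.14.

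Genes beside these 4 on the chromosome were not called. Phyh is on chromosome 2, Nudt19 and Ech1 on chromosome 7 and Ide on chromosome 19. Among the 10 nearest tested genes on each side, 0 of 17 measured neighbours of Phyh were called by limma, and 0 of 20 for each of the others. Over all probe sets tested 0.470% were called, so counts of 0 are near that share and do not set these neighbours apart. The median difference of the neighbours was 0.00 for Phyh, -0.04 for Nudt19, -0.01 for Ech1 and 0.00 for Ide.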

How the data were processed

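Signals came from 6 Affymetrix arrays, 1 per mouse. The deposited values are MAS5 intensity values on a linear scale, per the submitters' processing notes, with the version not given in the sources used here. Array medians were 43.1 to 47.3 and the trimmed means 149.58 to 150.0, so changes are relative to the rest of the array. No detection calls were used, and 3 arrays per genotype limit the precision. Of 45101 probe sets, 64 controls were left out and 34958 had 1 gene symbol in the platform annotation (932 several, the rest unnamed here); 34754 matched GRCm38.p6, which gave current names and neighbours.

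Values were transformed to log2(signal + 16), which understates changes of dim genes. The filter kept features whose mean level exceeded the 40th percentile. KO and WT were compared with limma 3.58.1 in R 4.3.3 (eBayes with an intensity trend) and adjusted by Benjamini-Hochberg over 27022 probe sets, threshold 0.05. Intervals are limma's 95% intervals for 1 gene, not adjusted for the number of genes. Values in every mouse were given for called genes, for genes with an unadjusted p under 0.05, and for the smallest p of each other role; further genes shown were chosen after their values were seen. The members and lists were chosen with earlier results of these data known. The procedure was tested on simulated data. Replicate numbers in the titles do not state a pairing, and same-numbered mice did not deviate together (r = -0.0091, -0.0348 and 0.0167).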

Additional observations from a re-analysis of the deposited data

How the results depend on the processing

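The counts of calls, the medians of the Pex genes, of the enzyme and membrane genes and of all probe sets, and the differences of 17 single genes were recomputed in 16 alternatives. The ratios between genes, marker sums, other lists, neighbours and letter matches were not. The alternatives were another offset (1, 64), another filter (none, or the 60th percentile), quantile or median scaling, a constant prior variance, robust estimation, the replicate number as a block, probe sets averaged by gene, and each array left out. Phyh was called in all 16, Nudt19 in 15, Ide in 14 and Ech1 in 13, and these 4 kept their direction in each. The count of called members was 1 without the intensity trend (only Phyh), against 3, and 2 to 3 with 1 array left out. No member was called higher in any. Over all probe sets 127 calls became 52 when unfiltered, 32 when probe sets were averaged by gene, where fewer features were tested, and 25 without the intensity trend. With 1 array left out the total ran from 65 to 102, and it moved by more than 1.5 times without KO 1 (65), KO 2 (73) or WT 2 (70). The median of the enzyme and membrane genes moved from -0.11 to -0.07 with an offset of 64 and to -0.07 with arrays centred on the median. It ran from -0.12 to -0.08 with 1 array left out. The cause of these shifts was not tested. With the replicate number as a block the total was 100 and the members called were the same 3 (adjusted p = 0.0034 for Phyh, 0.0045 for Nudt19 and 0.033 for Ech1), so the block changed no call among the members. The Pex median stayed between 0.01 and 0.07 in every alternative.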

Other observations

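Letters of other transcription factors were also searched in the windows from 250 bases before to 50 after the start. The palindrome bound by NRF1, a regulator of nuclear genes for mitochondria, was in 2 of the 35 member windows, both of Nudt7, beside 0.971% of all windows. The letters CCGGAAGT, bound by the ETS factor GABPA, were in 2 of the 35, those of Pex6 and Pex11a, beside 3.89%. Member windows had a median of 14 CpG in the 250 bases before the start, beside 6 over all 32851 windows. Phyh had 9, Nudt19 10 and Ech1 15. These counts are descriptions, and no factor's binding was measured.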
